A study of Homo sapiens with 3 samples.

Results

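Chromatin immunoprecipitation followed by sequencing (ChIP-seq) located ARID1B on the genome of HEK293FRT cells, and the regions described here are the distal ones that lie outside genes. Overlapping peaks of the 2 ARID1B replicates (at least 1 bp) were merged into 1 union set, which held 2289 regions on chromosomes 1 to 22 and X. A region was kept when it lay more than 10000 bp from every end of a protein-coding RefSeq gene and overlapped neither a protein-coding nor a long non-coding RNA (lncRNA) gene. This left 554 regions, 24.2% of the union set. HEK293FRT is a line derived from human embryonic kidney HEK293 cells; the labels give no genotype and no treatment. Nothing in them ties the replicates to separate cultures, so the spread between them may be technical. The series also has 1 input sample, not analysed here. With 1 group of 2 ChIP samples there is no contrast to test, so all values below are descriptions, set beside the same value over all regions or over all bases where such a region could lie.

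ARID1B is a subunit of the BAF (SWI/SNF) complexes, which use ATP to slide or evict nucleosomes. These complexes are known to act at promoters and, to a large part, at distal enhancers, where they keep DNA open for transcription factors. Enhancers of developmental genes can sit far from the gene in long stretches without other genes, known as gene deserts, and can act across a nearer gene. A neighbouring gene named below is therefore a landmark and not a target.

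The label of the set held with a qualification. Of the 554 regions, 528 (95.3%) overlapped no gene of any class in the RefSeq table, and 26 overlapped a gene that is neither protein-coding nor lncRNA. Of these 26, 17 lay over genes of small nuclear or small nucleolar RNAs, and they are described separately below. At the boundary of the rule, regions just inside it lay 10.4 kb from ADGRV1 and 10.6 kb from GRAP, and regions just outside it lay 9.97 kb from DDX47 and 9.77 kb from CCDC200.

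No genome sequence was used here, so letters were read only where a region ran into the RefSeq promoter window of a lncRNA gene without overlapping the gene. This was so for 5 regions, and 3 of them were found in both replicates and covered over 100 bases of the RefSeq promoter window (GRCh38.p14, 250 bases before to 50 after the gene's start). They are shown because they give actual bases of distal regions that both replicates found. All are on the plus strand, and capitals mark the bases inside the ARID1B region.
LOC105376123, chr9:86586120-86586419: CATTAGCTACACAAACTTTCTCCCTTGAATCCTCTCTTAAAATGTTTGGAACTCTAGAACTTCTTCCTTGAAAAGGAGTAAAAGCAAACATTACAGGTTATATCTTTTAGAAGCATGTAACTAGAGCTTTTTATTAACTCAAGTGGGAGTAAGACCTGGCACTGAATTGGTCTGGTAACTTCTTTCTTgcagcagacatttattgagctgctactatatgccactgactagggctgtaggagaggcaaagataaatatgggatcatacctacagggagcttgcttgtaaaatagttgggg
LOC101929411, chr3:102163455-102163754: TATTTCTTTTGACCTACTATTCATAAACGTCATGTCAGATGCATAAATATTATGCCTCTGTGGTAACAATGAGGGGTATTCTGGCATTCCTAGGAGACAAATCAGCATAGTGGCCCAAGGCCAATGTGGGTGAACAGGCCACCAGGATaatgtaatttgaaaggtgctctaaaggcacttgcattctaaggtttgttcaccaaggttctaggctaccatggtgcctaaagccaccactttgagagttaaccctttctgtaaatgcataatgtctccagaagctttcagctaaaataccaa
LOC105374852, chr2:88016389-88016688: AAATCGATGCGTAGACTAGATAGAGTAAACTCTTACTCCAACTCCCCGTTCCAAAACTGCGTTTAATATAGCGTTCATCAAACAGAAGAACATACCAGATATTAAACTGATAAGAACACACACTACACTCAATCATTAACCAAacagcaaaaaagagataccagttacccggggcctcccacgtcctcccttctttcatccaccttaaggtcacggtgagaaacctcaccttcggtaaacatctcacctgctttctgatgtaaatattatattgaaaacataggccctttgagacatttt

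The region at LOC105376123 (chr9:86585841-86586307) scored 109 in replicate 1 and 126 in replicate 2 and covered 188 of the 300 bases. It lay 231 kb from TUT7, a uridylyltransferase gene, and 358 kb from GAS1, a gene for a Hedgehog co-receptor. The region at LOC101929411 (chr3:102163262-102163602) scored 75 and 93, covered 148 bases and lay 222 kb from ZPLD1. The region at LOC105374852 (chr2:88016119-88016531; scores 112 and 88; 143 bases covered) also overlapped RNU2-63P, a U2-like gene. These windows were AT-rich: their GC content was 39.0%, 41.7% and 40.3%, where the median of 12806 lncRNA promoter windows was 50% and that of all 34789 promoter windows 58.7%. The covered parts alone had 35.6%, 43.2% and 36.4%. The windows not shown had 56.3% (LOC105378519, region from replicate 2 alone) and 37% (LOC124901731), so not every window was AT-rich. The motif TGANTCA, read by AP-1 factors, was in none of the 3 windows (on either strand 10.3% of the lncRNA windows and 7.69% of all windows hold it). GGAATG, the core read by TEAD factors, was in 1, that of LOC101929411, at base 85 on the minus strand within the covered part (on either strand 17.2% of the lncRNA windows and 14.1% of all windows hold it).

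Replicate support came next. Both replicates found 333 of the 554 regions (60.1%, exact Clopper-Pearson 95% interval 55.9 to 64.2), where the background over all 2289 regions was 57.3%. Replicate 1 alone found 117 (21.1%, background 20.8%) and replicate 2 alone 104 (18.8%, background 22%). The share in both was thus close to the background, and the interval holds it. Beside the other positions, distal regions inside lncRNA genes had 60.0% in both replicates, distal regions inside protein-coding genes 57.1%, and regions within 1 kb of a gene end 54.1%. The intervals, here and below, cover counting error only.

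**Figure D1:**
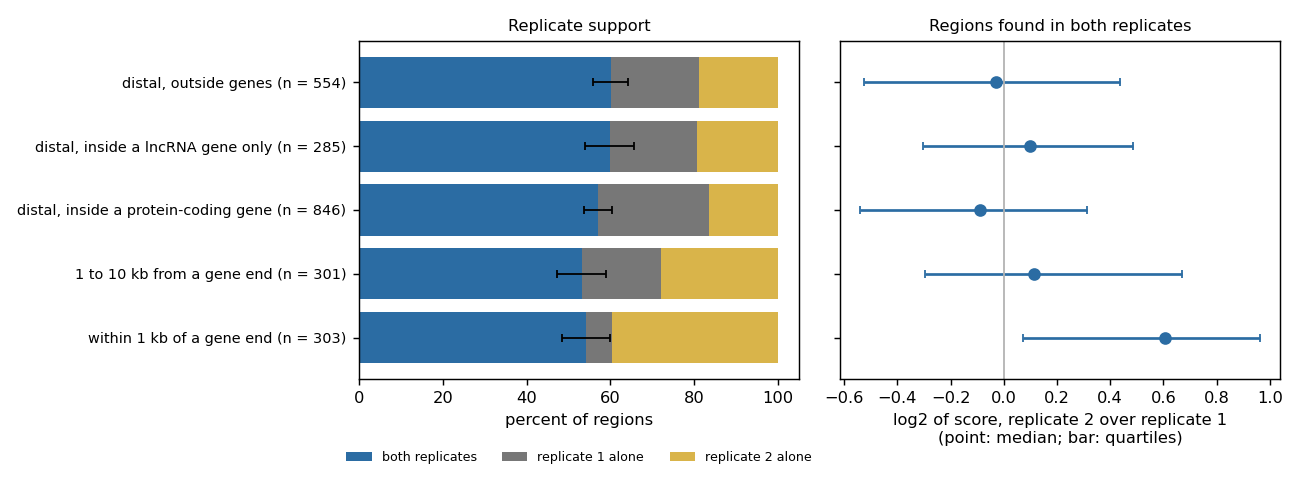
Left, percent of ARID1B regions found in both replicates or in 1 alone, by position relative to genes, with the exact 95% interval of the share in both; right, median and quartiles of the log2 score ratio of replicate 2 to replicate 1 in one-to-one pairs. Distal regions outside genes (60.1% in both) have nearly equal numbers from each replicate alone (117 and 104), while regions within 1 kb of a gene end have 19 and 120.

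The 2 replicates were nearly balanced in the number of distal regions that each found alone. Regions within 1 kb of a gene end had 19 from replicate 1 alone and 120 from replicate 2 alone, against 117 and 104 outside genes. Raw scores also split nearly evenly, but their scale is not stated, so this does not compare signal levels. Among 332 one-to-one pairs outside genes, 153 scored higher in replicate 2, 174 lower and 5 equal (46.1% higher, where the background over all 1303 pairs was 50.9%). The median log2 ratio of replicate 2 to replicate 1 was -0.03 (quartiles -0.53 to 0.44) outside genes and 0.61 (0.07 to 0.96) within 1 kb of a gene end. The difference between these positions was not tested.

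The authors' whole-number score, whose scale the sources used here do not give, ranks peaks within a list only. In replicate 1 the scores of the distal regions ran from 10 to 642 with a median of 78.5 (450 regions; median of the whole list 74), and in replicate 2 from 11 to 667 with a median of 77 (437 regions; whole list 75). A middle region of the set thus stood at the 54.3rd percentile of list 1 and at the 52.5th percentile of list 2, near the middle of both lists. The highest scores of the series, 1537 and 1642, lay elsewhere. Regions found in both replicates had medians of 97 and 91, and those of 1 replicate 49 (replicate 1) and 51 (replicate 2). Scores of the one-to-one pairs correlated with a Spearman rho of 0.70 over 332 regions, which share their 2 libraries (0.71 over all 1303 pairs).

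Support climbed with the score. Of the distal regions in the lowest 25% of list 1, 42 of 99 (42.4%, exact 95% interval 32.5 to 52.8) were found in both replicates, and of those above the 75th percentile 118 of 120 (98.3%, 94.1 to 99.8). In list 2 it was 52 of 101 (51.5%, 41.3 to 61.6) and 117 of 119 (98.3%, 94.1 to 99.8). Over all regions the same score classes gave 48.2% and 98.2% in list 1 and 47.0% and 98.0% in list 2, so the distal set and the whole union set showed the same order.

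**Figure D2:**
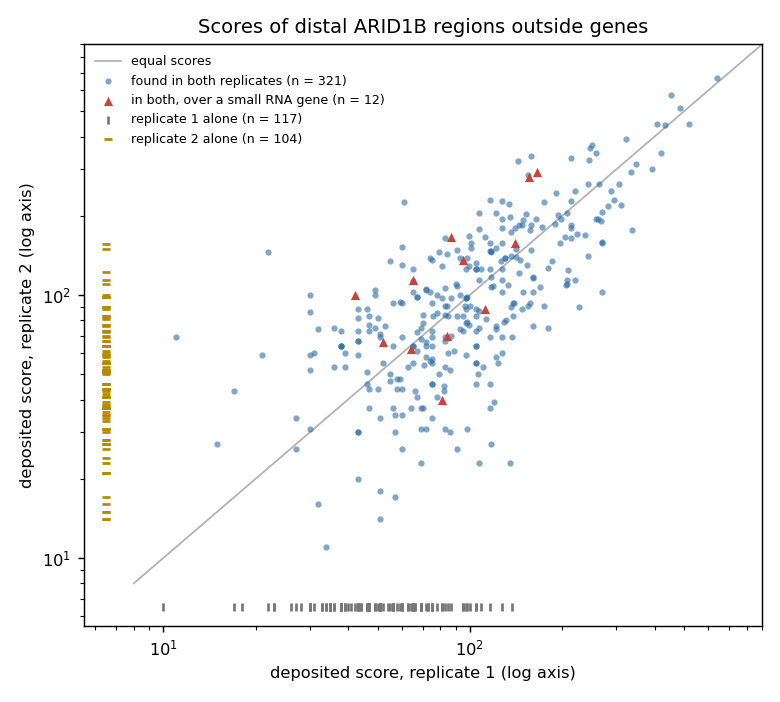
Deposited score in replicate 1 (x, log axis) and replicate 2 (y, log axis) of each distal ARID1B region outside genes; ticks at the edges are regions found in 1 replicate alone, and triangles are regions over small nuclear or nucleolar RNA genes. Points gather around the line of equal scores, and regions of 1 replicate alone reach 137 and 156 where shared ones reach 642 and 667.

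The highest-ranked distal regions, ordered by the lower of their percentiles in the 2 lists, stood in unlike surroundings. The first lay at chr8:37302391-37303220 (scores 642 and 667), 366 kb from KCNU1, a sperm potassium channel gene, and 393 kb from ZNF703, the gene of a zinc-finger corepressor. The second lay at chr15:95556823-95557385 (484 and 512), 769 kb from NR2F2, which encodes the nuclear receptor COUP-TFII, and 1073 kb from MCTP2. Both stand far inside long gaps.

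The next 3 lay much closer to genes. A region at chr19:40920839-40921673 (452 and 578) lay between CYP2A7 and CYP2B6 of the cytochrome P450 family, 38.6 and 69.6 kb away. One at chr6:82260175-82260616 (517 and 445) lay 12.4 kb from IBTK and 102 kb from TPBG, the gene of a trophoblast glycoprotein. One at chr1:86774353-86774938 (434 and 444) lay 26.2 kb from SH3GLB1, an endophilin gene, and 87.5 kb from SELENOF. These 3 gaps measured 109, 115 and 114 kb and were the shortest among the first 12 regions.

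Transcription factor genes neighboured several of the others. A second region of the KCNU1 to ZNF703 gap (chr8:37360412-37360932) scored 409 and 447. A region 50.3 kb from FOXB1, a forkhead gene (chr15:59953402-59953999), scored 324 and 390. One 503 kb from LMO4, a LIM-only cofactor gene (chr1:87852404-87852811), scored 420 and 346. The LMO4 region shows the distances involved, since its other neighbour, PKN2, lay 831 kb away.

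The last 4 of the 12 included a pair of T-box neighbours and a gene of the AP-1 factor. One region lay 158 kb from TMEM72 and 368 kb from CXCL12, a chemokine gene (chr10:44752746-44753316; 348 and 315). One lay between TBX5 and TBX3, T-box genes of heart and limb development, 248 and 13.5 kb away (chr12:114656111-114656787; 394 and 302). One lay between JUN and FGGY, 431 and 81.2 kb away (chr1:59214660-59215142; 336 and 293). JUN encodes a subunit of AP-1, and 5 regions of the union set that did not meet the rule lay in the same gap. The last (chr7:33734015-33734514; 257 and 346) lay 98.2 kb from BBS9, a cilium gene, and 170 kb from BMPER, whose product binds bone morphogenetic proteins.

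Distances to genes were then described. From a region to the closest end of a protein-coding gene the median was 83.3 kb (quartiles 34.7 to 219 kb), the median distance to the farther neighbour 308 kb, and the median gap between the neighbouring genes 473 kb. Altogether 250 regions (45.1%) lay over 100 kb from every gene end. As a background, the bases open to the rule (over 10 kb from a protein-coding gene end, outside protein-coding and lncRNA genes, between 2 protein-coding genes) summed to 1139 Mb, and their median distance was 155 kb (quartiles 46.7 to 488 kb). The median region thus lay nearer to a gene than the median open base. When lncRNA genes also bounded the gap, its median was 117 kb.

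Long gaps between protein-coding genes held a smaller share of the regions than of the open bases. Of the 552 regions between 2 genes, 133 (24.1%, exact 95% interval 20.6 to 27.9) lay in a gap of at least 1000000 bp, where 45.0% of the open bases lay. In gaps of at least 500000 bp it was 273 (49.5%, 45.2 to 53.7) and 61.4%. Unassembled and centromeric sequence was not taken out of the open bases, so both shares were also taken over gaps of at most 3 Mb: 22.7% of 542 regions and 34.7% of open bases lay in gaps from 1000000 bp, and 48.5% and 54.2% in gaps from 500000 bp. The shares depend on what bounds a gap: with lncRNA genes as bounds too, 4 regions (0.722%) and 13.6% of the open bases lay in gaps from 1000000 bp.

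The regions were most dense in gaps of middle length. Gaps of 500 to 1000 kb held 140 regions, or 0.751 per Mb of open bases, against 0.485 per Mb over all gaps. Gaps of 100 to 250 kb and of 250 to 500 kb held 0.666 and 0.664 per Mb, gaps under 100 kb 0.554 and gaps over 2000 kb 0.135. Replicate support varied less, with 56.4% of regions in both replicates in gaps of 500 to 1000 kb and 61.5% in gaps over 2000 kb. By distance, positions 50 to 100 kb from a gene end held 0.747 regions per Mb and positions over 500 kb away 0.140.

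**Figure D3:**
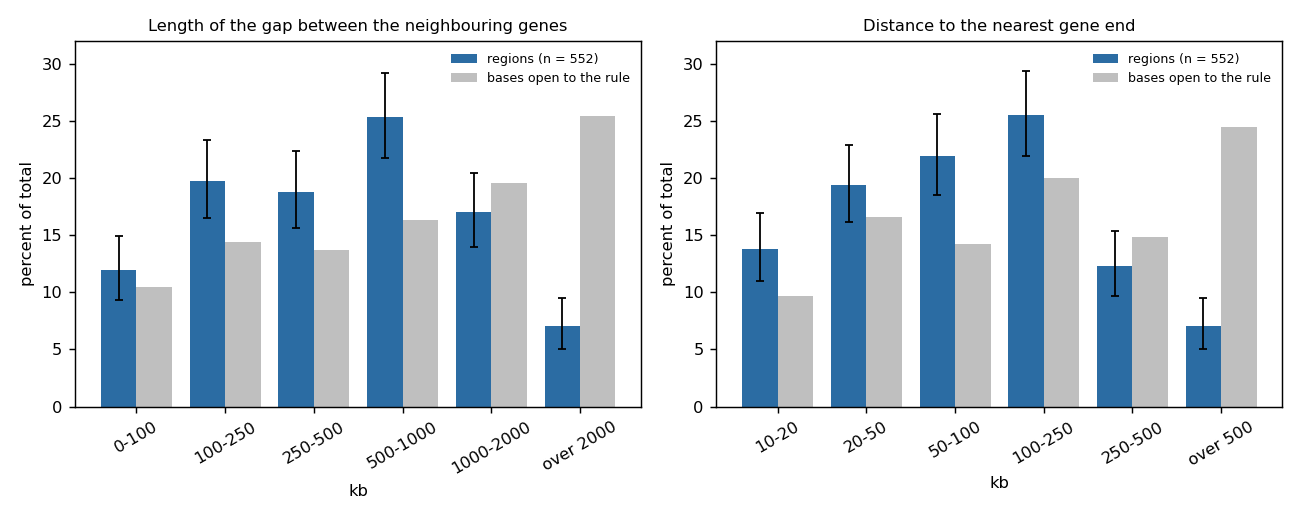
Percent of distal ARID1B regions (blue, exact 95% interval) and of the bases open to the rule (grey), by the length of the gap between neighbouring protein-coding genes (left, kb) and by distance to the nearest gene end (right, kb). Gaps of 500 to 1000 kb hold 25.4% of regions and 16.4% of bases, and gaps over 2000 kb 7.07% and 25.4%.

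The most isolated regions named here had low to middle scores. The farthest 2 lay 3231 and 2961 kb from a gene end on chromosome 22, before its first protein-coding gene; the former (chr22:12297193-12297620) scored 30 and 100 and the latter was found in replicate 2 alone, with 50. A region 1769 kb from a gene end in the gap beside ZNF337 on chromosome 20 was also found in replicate 2 alone, with 51. The next was found in both replicates at 46 and 46, 1048 kb from ADGRL4.

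Of the 5 regions in the longest gaps, a region over the U1 variant gene RNVU1-18 (scores 84 and 70) sat in a gap of 22439 kb across the centromere of chromosome 1, but only 173 kb from H3-7. The ZNF337 region of chromosome 20 followed. Regions between ZNF254 and UQCRFS1, a respiratory complex III gene, across the centromere of chromosome 19, made up the rest. All 4 regions of that gap were found in both replicates, 340 to 914 kb from UQCRFS1, the highest with 238 and 169 (chr19:28425214-28425808).

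Strand was known for 15813 of 19821 protein-coding genes, which allowed the facing end of a neighbour to be read. The nearer gene turned its start to 223 regions (40.4%, exact 95% interval 36.3 to 44.6) and its end to 210 (34.0 to 42.2%); for 119 the strand was not at hand. Over the open bases the shares were 40.1% and 40.4%. Starts faced the region from both sides in 104 cases (18.8%, 15.7 to 22.4; open bases 16.3%) and ends in 78 (14.1%, 11.3 to 17.3; open bases 16.4%). Each of these 4 intervals holds the share of the open bases.

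Many gaps held 1 region, and a few held many. Of 7735 gaps with open bases, 392 (5.07%) held a region: 308 held 1, 47 held 2, and 37 held 3 or more. Those 37 gaps held 150 regions (27.2% of 552) on 2.55% of the open bases, a share that their choice by count fixes in part. In 19 gaps with 4 or more there were 96 regions, of which 56 (58.3%) were found in both replicates, again near the background of 57.3%. Neighbouring regions are not independent sites: 28 of the 554 lay within 1 kb of another ARID1B region, and 20 of these 28 were found in both replicates.

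The gap between KCNJ2, an inward-rectifier potassium channel gene, and SOX9, the transcription factor gene of cartilage and testis development, held the most. Its 10 regions were spread over 1191 kb of a gap of 1941 kb, 251 to 1442 kb from SOX9. Both replicates found 5 of them, with scores in replicates 1 and 2 of 83 and 91 (1151 kb from SOX9), 60 and 152 (682 kb), 30 and 86 (505 kb), 136 and 140 (488 kb), and 63 and 53 (251 kb). Replicate 1 alone found 4, at 31, 39, 98 and 10, and replicate 2 alone 1, at 44. No region of this gap reached 200 in either list, and the gap held more regions of the set than any other.

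The KCNU1 to ZNF703 gap (760 kb) held 7 regions, 20.1 to 471 kb from ZNF703, and the highest scores. Besides the regions with 642 and 667 and with 409 and 447, both replicates found one at 185 and 135 (302 kb from ZNF703) and one at 251 and 372 (20.1 kb). Another 10 regions of the union set lay in this gap without meeting the rule. The gap beyond ZNF608, another zinc-finger gene, towards GRAMD2B (1611 kb) held 6 regions of the set and likewise 10 others. Both replicates found 3 of the 6, led by chr5:125409127-125410315 (244 and 325), 660 kb from ZNF608 and with 1189 bp the widest region of the set.

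Chromosome 1 supplied 5 of the 19 gaps. Between HLX, a homeobox gene, and DUSP10, a MAP kinase phosphatase gene, 6 regions included 4 found in both replicates, 32.1 to 106 kb from HLX. Their scores were 127 and 69, 262 and 195, 107 and 205, and 135 and 23. The last of these is the pair with the lowest ratio of the set, so the replicates ranked the HLX regions differently.

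The other long gap of chromosome 1 lay between the adhesion receptor genes ADGRL4 and ADGRL2. It held 6 regions over 1073 kb and no other region of the union set; the 3 found in both replicates scored 46 and 46, 339 and 177, and 268 and 191. Between RHOU and RAB4A, both GTPase genes, 2 of 5 regions were in both replicates (highest 191 and 244), and between SPAG17 and TBX15, a T-box gene of skeletal development, 3 of 4 (highest by the lower percentile 98 and 98). Beside FOXD2, a forkhead gene, 4 regions stood within 28.9 kb, of which 3 were in both replicates (67 and 72, 32 and 74, and 158 and 338). The FOXD2 group was thus compact, where the ADGRL2 group was not.

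Compact groups also stood on chromosomes 13 and 6. Between GPR12, an orphan receptor gene, and USP12, a deubiquitinase gene, all 4 regions within 33.7 kb were found in both replicates (78 and 85, 83 and 67, 243 and 263, and 269 and 206). Before EPHA7, an ephrin receptor gene, 5 regions stood within 101 kb, but 2 were in both replicates (highest 189 and 186). The GPR12 group was thus both narrower and better supported than the EPHA7 group.

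Several further gaps had a developmental regulator at 1 side. Between MCTP2 and NR2F2, 3 of 5 regions were in both replicates (484 and 512, 60 and 69, 21 and 59). Beside SOX2, a pluripotency factor gene, 3 of 4 were in both replicates (highest by the lower percentile 107 and 114, 137 kb from SOX2), and beside GATA3, a T cell and kidney factor gene, 2 of 4 (highest 134 and 222, 459 kb away). Between BNIP2 and FOXB1 it was 2 of 4, and between SLC4A3 and EPHA4, another ephrin receptor gene, 2 of 4 with scores no higher than 85 and 69. The SLC4A3 to EPHA4 group was the most spread of these, over 1476 kb.

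Not every gap of this kind had a developmental factor at its side. Between PRICKLE1, a planar polarity gene, and ADAMTS20, a protease gene, 2 of 5 regions were in both replicates (highest by the lower percentile 117 and 107). Between BAMBI, the gene of a TGF-beta pseudoreceptor, and LYZL1 it was 2 of 5, with scores no higher than 51 and 98. Before ANKRD30A on chromosome 10 it was 3 of 4 (highest 213 and 164). The BAMBI regions included 1 of the least alike pairs of the set, described further on.

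**Figure D4:**
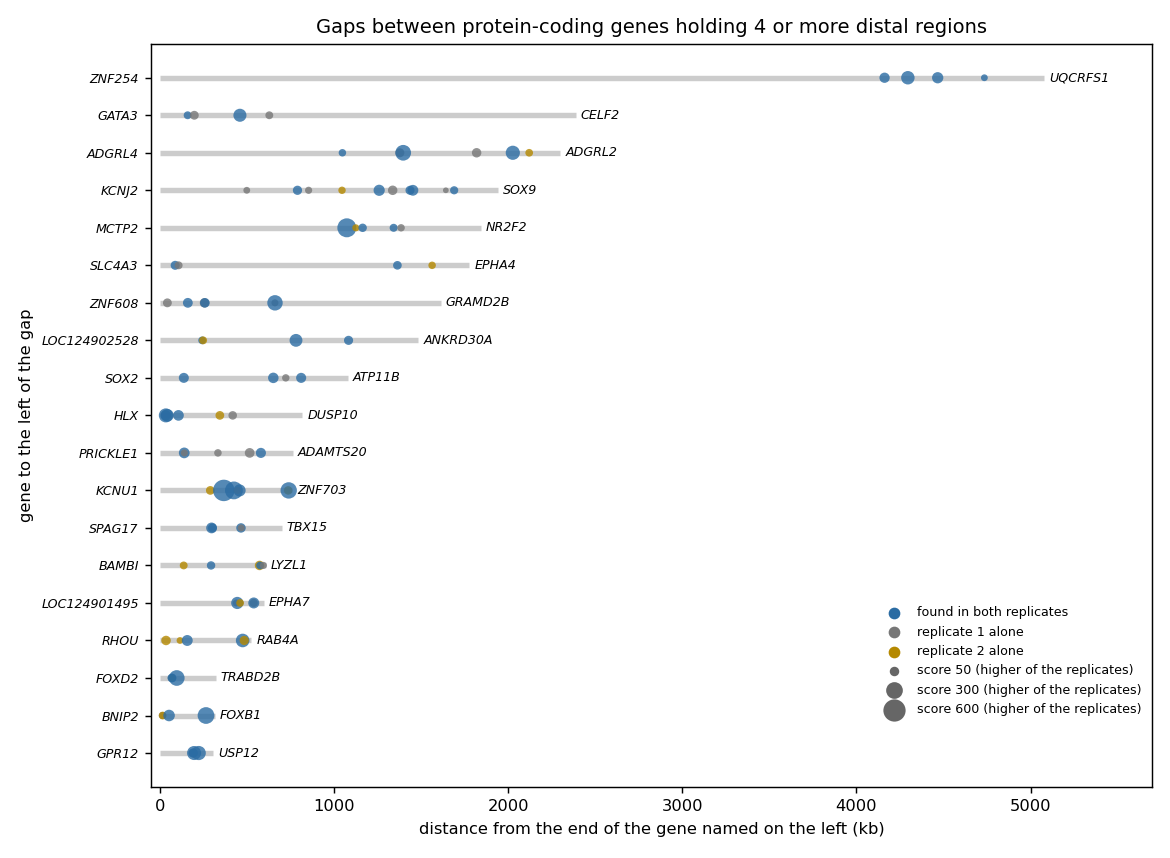
Position of distal ARID1B regions in the 19 gaps that hold 4 or more, as distance in kb from the end of the gene named on the left; grey bars are the gaps, colour shows replicate support and point area grows with the higher score. The KCNJ2 to SOX9 gap has 10 small points spread over 1191 kb, while the GPR12 to USP12 and FOXD2 to TRABD2B gaps have 4 each within 33.7 and 28.9 kb.

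Neighbouring genes were then read by gene list. All 6 lists of transcription factors together held 269 genes, of which 238 had open bases beside them, and 57 of these (23.9%) neighboured a region. Of all protein-coding genes 11278 had open bases beside them, and 761 of these (6.75%) neighboured a region. These shares of genes were not matched for the length of open sequence beside each gene. Genes of the 6 lists neighboured 103 of 552 regions (18.7%, exact 95% interval 15.5 to 22.2), while 8.70% of the open bases had such a neighbour. Since the lists were written with results of these data known, 14 genes of loci known from them were left out in an alternative added later: 67 regions (12.1%, 9.53 to 15.2) then had such a neighbour, against 7.94% of the open bases. Without these 14 genes, 49 of 226 genes with open bases beside them (21.7%) neighboured a region. Of the 103 regions 70 (68.0%) were found in both replicates, where it was 60.1% over the set and 57.3% over all regions. This difference was not tested.

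Single lists differed. Forkhead genes neighboured 15 regions (2.72%, exact 95% interval 1.53 to 4.44; open bases 0.567%), the zinc-finger regulators 30 (5.43%, 3.70 to 7.67; 1.92%), SOX and related genes 18 (3.26%, 1.94 to 5.10; 1.02%) and nuclear receptors 13 (2.36%, 1.26 to 3.99; 0.976%). For homeobox genes outside the HOX clusters it was 15 (2.72%, 1.53 to 4.44; 2.98%). For the list of basic helix-loop-helix, T-box and AP-2 genes, which also held RUNX1 and EBF1, it was 13 (2.36%, 1.26 to 3.99; 1.40%). Regions of 1 gap share their neighbours, so these intervals are too narrow. Since the lists were written with results known, they are no test of a list. HLX, a homeobox gene, was in none of the 6 transcription factor lists. The 6 regions between HLX and DUSP10 were therefore not counted for homeobox genes or for the 6 lists together. Genes of loci known beforehand held many of the regions: ZNF608 and ZNF703 had 8 and 7 of the 30, SOX9 10 of the 18, and NR2F2 and NR2F1 6 and 3 of the 13. In the forkhead list FOXB1 and FOXD2, which were not such genes, had 5 and 4 of the 15. FOXC1, FOXF2 and FOXQ1 were such genes. Without them, in an alternative added after the data were seen, forkhead genes neighboured 13 regions (2.36%; open bases 0.524%), zinc-finger regulators 15 (2.72%; 1.70%), SOX and related genes 8 (1.45%; 0.850%) and nuclear receptors 4 (0.725%; 0.650%).

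Forkhead genes show the spread of distances. Both replicates found the region between FOXF2 and FOXC1 (chr6:1597163-1597679; 136 and 173), 12.2 kb from FOXC1. FOXA1, a pioneer factor gene, had one 22.1 kb away (220 and 114), FOXP2, a gene of speech and brain development, one 64.9 kb away (43 and 59), and FOXA2 one 151 kb away (47 and 37). FOXQ1 had one from replicate 2 alone (61). The 4 forkhead genes with the highest-ranked regions were FOXB1, FOXD2, FOXC1 and FOXF2.

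The other factor lists held these regions among their highest-ranked. SOX6 had one at 172 and 181, 595 kb away, and SOX4 one at 127 and 195, 329 kb away. Between the receptor genes THRB (thyroid hormone) and RARB (retinoic acid), 1 region scored 164 and 194, and NR2F1 had 3, the highest with 160 and 117 at 1030 kb. Among homeobox genes SHOX2 led (283 and 218, 182 kb away), NKX2-3 had one at 122 and 205, 12.5 kb away, and MSX2 one at 101 and 157.

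Genes with a single region stood in the zinc-finger list and in the list with helix-loop-helix factors. ZNF521 had a region at 270 and 159, 523 kb away. SIM1 had one at 208 and 205, and EBF1 one from replicate 2 alone at 122. Each of these 3 genes neighboured 1 region of the set.

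Secreted factors and surface molecules gave another picture. Secreted morphogens and growth factors neighboured 11 regions (1.99%, exact 95% interval 0.999 to 3.54; open bases 1.84%), among them FGF5 (149 and 193), INHBA (105 and 125), VEGFA (replicate 2 alone, 90) and GDF10 (replicate 1 alone, 58). Synaptic and axon guidance genes had 23 (4.17%, 2.66 to 6.19) where 7.96% of the open bases lay beside them, and cadherins and protocadherins 3 (0.543%, 0.112 to 1.58) where 4.12% did. Both shares were lower than those of the open bases, and the difference was not tested. The lists were not matched for gap length, and gaps over 2000 kb held 0.135 regions per Mb against 0.485 over all gaps.

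The regions that did lie beside surface genes were found in both replicates in 12 of 23 and 2 of 3 cases (background over all regions 57.3%). Between ROBO1 and ROBO2, which encode axon guidance receptors, 1 region scored 196 and 158. EFNB2, an ephrin gene, had 2 (highest by the lower percentile 99 and 77). Between CDH19 and CDH7 1 scored 91 and 148, PCDH9 had one at 107 and 75, and PCDH7 one from replicate 1 alone at 83.

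The last lists had few members. Of AP-1, TEAD and Hippo genes 2 of 25 neighboured a region, among them JUN (336 and 293), 2 regions in all (0.362%, exact 95% interval 0.0439 to 1.30; open bases 0.368%). Ribosomal protein genes had 2 of 85 beside 3 regions (open bases 0.462%, regions 0.543%), namely RPS23 (214 and 333) and RPLP1 (36 and 75). Olfactory receptor genes had 2 of 387 beside 3 regions (0.543%, open bases 1.31%), namely OR4E1 (146 and 136) and OR2K2 (117 and 117).

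**Figure D5:**
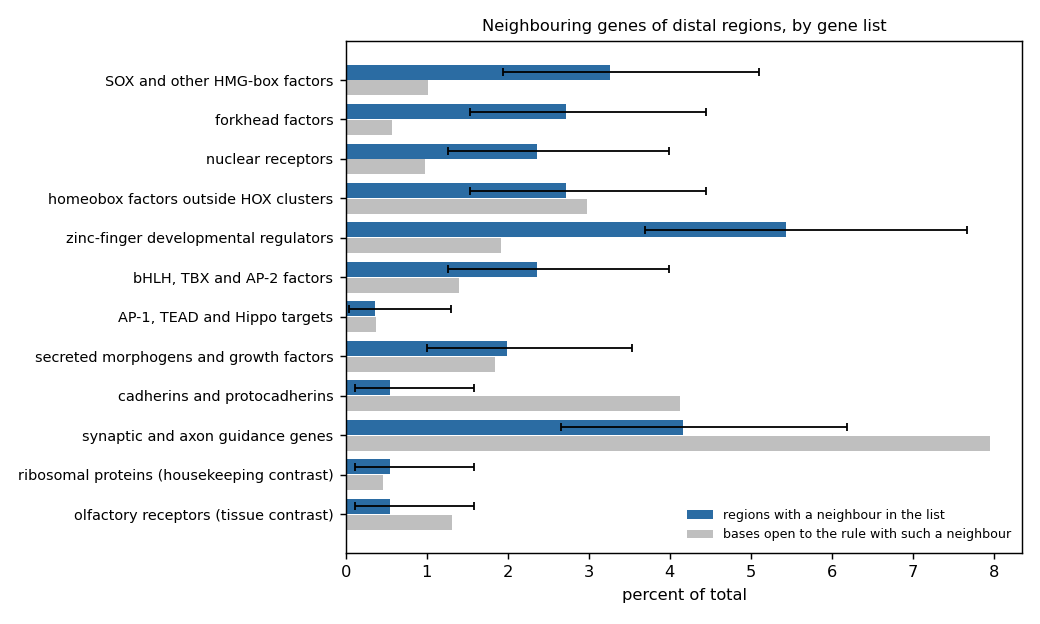
Percent of 552 distal ARID1B regions with a neighbouring gene in each list (blue, exact 95% interval) and percent of the open bases with such a neighbour (grey). Forkhead genes stand at 2.72% and 0.567%, cadherins and protocadherins at 0.543% and 4.12%.

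Unlike the 528 regions that overlapped no gene, the 17 over small RNA genes were at a gene. Of these, 8 lay over U1 genes or variants, among them RNU1-1 (chr1:16513865-16514386; 95 and 136), RNU1-2 (64 and 62) and RNVU1-22, listed as a pseudogene (165 and 293); U1 RNA recognises the start of introns. The 5 copies of the U3 genes, whose RNA serves ribosomal RNA processing, all had one in both replicates: SNORD3B-1 (140 and 158), SNORD3B-2 (156 and 281), SNORD3D (65 and 114), SNORD3A (87 and 166) and SNORD3C (42 and 100). RNU5B-1 of the U5 class had one at 81 and 40. Both replicates found 12 of the 17, 8 of them with a higher score in replicate 2, and the other 5 were found in replicate 2 alone. Over all regions 57.3% were in both and 22% in replicate 2 alone, and 50.9% of pairs scored higher in replicate 2. A lean to replicate 2 was also seen within 1 kb of a gene end (39.6% in replicate 2 alone, 77.6% of pairs higher). These genes exist in near-identical copies, so a read may have been placed at the wrong copy, and the values of single copies are uncertain.

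Other annotation under the regions was scarce. OACYLP, a transcribed pseudogene on chromosome 18, held 3, of which 2 were strong in both replicates (chr18:59053338-59053819 with 310 and 220, and chr18:59054778-59055229 with 198 and 195). The T cell receptor alpha locus held 2, at 146 and 136 and at 34 and 11. The remaining 4 lay over HYDIN2 (replicate 1 alone, 38), RNA5SP362 (51 and 69), LOC100420587 (155 and 91) and CASTOR3P (49 and 104).

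Regions of 1 replicate alone and pairs with unlike scores show the replicate error. The highest from replicate 1 alone scored 137 between ECI2 and CDYL, 127 beside DACT1, a Wnt antagonist gene, and 116 beside PLGLB1. From replicate 2 alone, a region beside CRLF3 scored 156 and one between CLINT1 and EBF1 scored 122. The largest disagreements within pairs were at ATL2 (22 and 146), in the BAMBI gap (11 and 69) and at TBL1XR1 (61 and 225) in one direction, and at HLX (135 and 23), CWC22 (107 and 23) and NSUN3 (117 and 27) in the other. Scores up to 137 in list 1 and 156 in list 2 thus occurred without any peak in the other list. Regions of replicate 1 alone stood in longer gaps (median 595 kb) than those of replicate 2 alone (309 kb) and those of both (440 kb); this difference was not tested.

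Over the chromosomes the density per Mb of open bases ran from 0.120 on chromosome X (10 regions) to 1.21 on chromosome 17 (29), with 1.12 on chromosome 15 (26) and 0.813 on chromosome 1 (74, the most). Chromosomes 16 (0.163), 4 (0.227) and 9 (0.271) were the next lowest after X. Unassembled and centromeric sequence was not taken out of these open bases, so densities of single chromosomes cannot be compared closely. The set made up 7.89% of all regions on chromosome 19, which is rich in genes, and 35.9% on chromosome 13. On chromosome 13, 15 of 23 were found in both replicates, 7 in replicate 1 alone and 1 in replicate 2 alone. The backgrounds over all regions were 57.3%, 20.8% and 22%. Regions of the set had another ARID1B region of any position within 100 kb in 42.1% of cases (233 of 554, exact 95% interval 37.9 to 46.3), against 44.7% over all regions, 52.6% for distal regions inside lncRNA genes and 32.3% for those within 1 kb of a gene end.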

How the data were processed

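ARID1B ChIP-seq peaks of 2 replicates were analysed. The tools named are Bowtie2 2.3.4.1, MACS2 2.1.2 and bcl2fastq 2.20.0.422, with build hg38, per the submitters' processing notes. For settings, thresholds, the control and duplicate reads the entry is: not given in the sources used here. The authors deposited, for each replicate, peak positions with a whole-number score of unstated scale, so peaks were called per sample. The score describes and ranks peaks within a list; its log2 ratio is taken only in pairs. The lists held 1792 and 1820 peaks without read counts, so depth is unknown.

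Starts were converted to count from 1. Genes came from the RefSeq table of GRCh38.p14 (58419 kept; 679 on unlocalized or alternate sequences of chromosomes 1 to 22 and X left out). The table has no exons, so a gene end is either annotated end. Strand came from the RefSeq promoter table. Gaps are stretches between neighbouring protein-coding gene bodies. Shares carry exact Clopper-Pearson 95% intervals. Assembly gaps were not removed. A region of several peaks takes the highest score per list. The scripts were tested on simulated regions (Python 3.11.15).

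The members and the 12 gene lists were chosen with earlier results of these data known. By rule, the text names the 12 highest-ranked regions in both replicates, gaps with 4 or more regions, the 5 farthest regions, the 5 in the longest gaps, 3 on each side of the 10 kb limit, 3 from each replicate alone, 3 pairs at each end of the ratio and up to 4 genes per list; any further name was picked with its values in view. Some regions and genes that the rule names are not reported here. Alternatives were limits of 5 and 50 kb, genes of every class, peaks at or above their list's median, each list alone, 50% reciprocal overlap, centres within 200 bp and other desert definitions.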

Additional observations from a re-analysis of the deposited data

How the results depend on the processing

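The share of regions found in both replicates was 58.7% to 60.1% under all 7 alternatives tried for it, among them 50% reciprocal overlap (58.9%) and, chosen after the data were seen, leaving out the small RNA genes (59.8%). Limits of 5 kb and of 50 kb moved the median distance to 72.8 and 156 kb by construction, and with 50 kb 33.9% of regions lay in gaps from 1 Mb. The 50 kb limit also leaves out short gaps, and the share of open bases under it was not taken. Gaps from 500 kb held 49.5% of regions and 61.4% of the open bases. With lncRNA genes as bounds too, gaps from 1 Mb held 0.722% of regions and 13.6% of the open bases. Among peaks scoring no lower than their list's median, the median scores were 117 and 125 and 16 gaps held 3 or more regions instead of 37, since 300 regions remained. With list 1 alone and list 2 alone, in this order, 31 and 26 gaps held 3 or more, 25.9% and 22.7% of regions lay in gaps from 1 Mb, the median distances were 88.7 and 79.2 kb and the median scores 79 and 77. The median log2 ratio was 0.03 in pairs at or above the median of both lists and -0.03 in all pairs. No paired analysis was possible because the design has 1 group. Depth is unknown, so a missing peak in 1 list may be a peak just under its threshold.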
